A study of Mus musculus with 6 samples.

Results

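Chromatin-modifying enzymes are described here in mouse prostate cancer cells with and without a PIM1 lentivirus. The group holds the autosomal genes with a Kdm, Kmt, Hdac, Sirt, Setd, Prdm, Prmt or Kat symbol, the genes Dnmt1, Dnmt3a, Dnmt3b, Dnmt3l and Tet1 to Tet3, the polycomb genes Ezh1, Ezh2, Eed and Suz12, and Ep300. They were chosen by name, and 85 of the 22180 genes measured belong to it. Another 5 genes that match by name lie on the X or Y chromosome and were left out by that choice, and Kat14, Kdm2b and Prmt2 have no probe set of their own and were not analysed here. Where a gene had more than 1 probe set the brightest was used, which concerned 4 of the 85 (Hdac11, Kdm6b, Prdm12 and Prdm16).

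The cells are epithelial cancer cells of the prostate from Rb1F/F:Trp53F/F:PB-Cre4 mice, in which both tumour suppressor genes carry alleles that Cre removes, and Cre is driven by a probasin promoter that is active in prostate epithelium. Both groups share this background. The EV group (3 arrays) received a lentivirus with an empty vector, the PIM1 group (3 arrays) a lentivirus for PIM1, a serine/threonine kinase, and the comparison asked how expression differs between them. Values are log2 signals of an Affymetrix whole-transcript array, differences are PIM1 minus EV on that log2 scale, and errors are SD over n = 3 arrays unless named otherwise. No label says that the arrays stand for separate cultures, so p-values measure the spread between these arrays, which may be technical, and fewer cells of a type cannot be told apart from less RNA per cell.

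The enzymes of this group write and remove marks on histones and DNA. Acetyltransferases add acetyl groups to lysines and thereby open chromatin, and deacetylases and sirtuins take them off. Methyltransferases and demethylases set methylation of lysines and arginines, which marks active promoters, transcribed genes or repressed regions depending on the residue, and DNA methyltransferases and TET enzymes do the same on cytosine. Loss of RB1 releases E2F transcription factors, of which Ezh2, Suz12 and Dnmt1 are textbook targets, so these genes are usually well expressed in proliferating cells without RB1.

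Of the 85 genes, 14 were higher and 12 lower in PIM1 cells, and 59 did not pass (limma, Benjamini-Hochberg adjusted p under 0.05 over all 22180 genes). The share that passed was 30.6%, beside 27.0% of all genes, so these enzymes passed about as often as other genes. For the higher genes the background was 16.1%, and for the lower genes it was 10.9%. These shares of all genes are also the background for the counts of each class and list below. The median difference was -0.05 for the enzymes and -0.05 for all genes, and the median size of a difference was 0.21 and 0.23. The 26 differences that passed were between 0.32 and 1.11 in size, and Hdac5 was the single gene that passed with at least a 2-fold change, which 6.26% of all genes did. The 3 PIM1 arrays did not overlap the 3 EV arrays for all 26 genes that passed and for 14 that did not, 47.1% of the group in all, beside 43.2% of all genes. Of the 59 genes that did not pass, 44 had a 95% interval of the difference that lay within 0.5 on either side of 0, and 58 one within 1, which leaves only Hdac9 open to a 2-fold change. A low signal limits a further part of the group: 13 of the 85 genes lay below the median gene of the arrays (4.01), and 1 of these, Prdm8, passed.

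**Figure D1:**
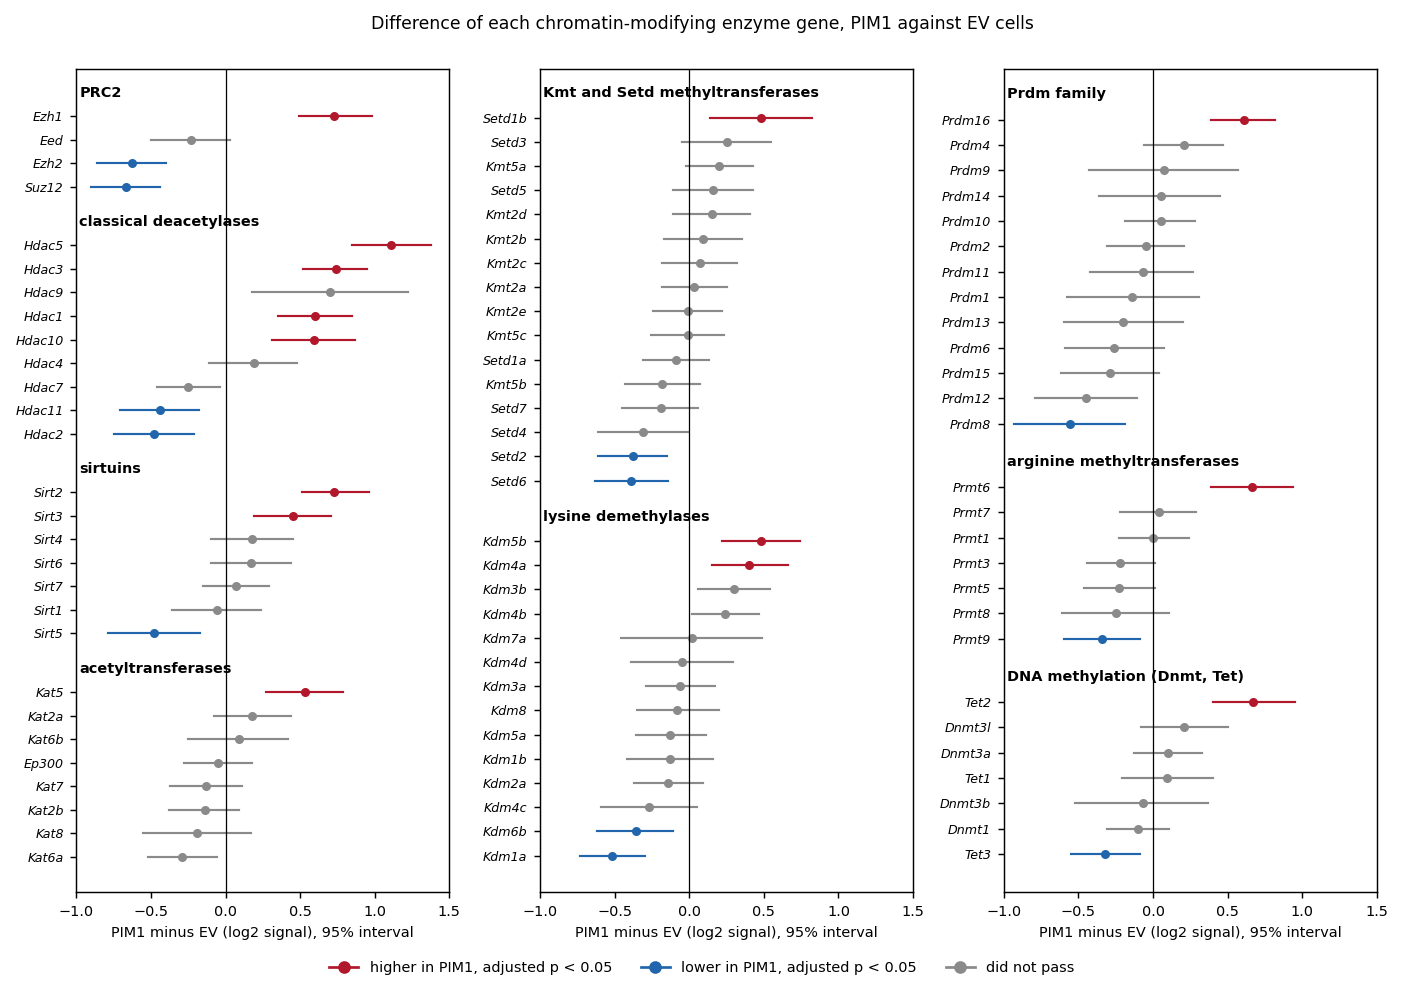
Difference between PIM1 and EV cells for each of the 85 genes, by enzyme class, on the log2 scale (x axis), with points for the fitted difference and lines for its 95% interval. Hdac5 lies farthest to the right at 1.11, Suz12 farthest to the left at -0.67, and most intervals of the Kmt, Setd and Prdm genes cross 0.

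The scaling of the arrays bears on the balance of higher and lower genes and on which genes passed. The arrays were compared as deposited, where the median array signal was 3.501 ± 0.014 in EV and 3.403 ± 0.016 in PIM1. Centring each array on its median shifted every difference up by that gap, moved the median of all genes from -0.05 to 0.05 and turned the split of the enzymes from 14 higher and 12 lower to 17 higher and 4 lower. Quantile normalization gave 13 higher and 15 lower, as did cyclic loess. Over all genes the share of higher calls was 59.6% as deposited, 73.5% after centring, 56.0% after quantile normalization and 58.6% after cyclic loess. None of the 26 genes changed sign under any of these, and 16 of them passed under each. Median centring could not have changed a sign, since the smallest of the 26 differences was 0.32 in size. The genes that passed as deposited and in every one of the 14 alternatives tried were 13: Hdac5, Hdac3, Hdac1, Hdac10, Sirt2, Ezh1, Prmt6, Tet2, Kat5 and Kdm5b, which rose, and Suz12, Ezh2 and Kdm1a, which fell.

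**Figure D2:**
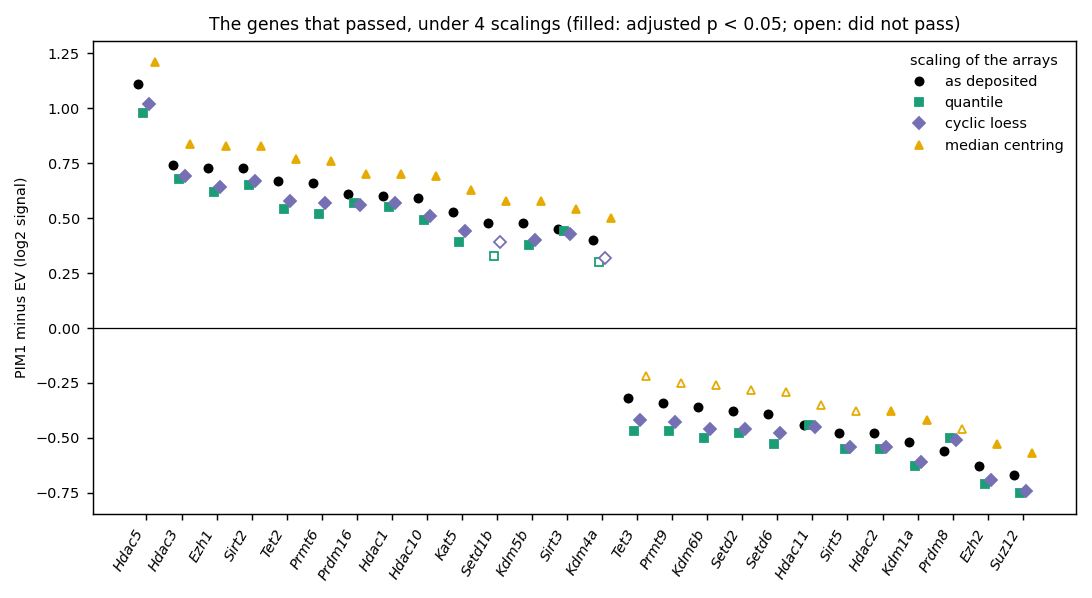
Differences of the 26 genes that passed, under 4 scalings of the arrays (y axis, log2 signal, PIM1 minus EV), with filled symbols where adjusted p was under 0.05. Every gene keeps its side of 0, and median centring leaves 8 of the lower genes with open symbols.

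The polycomb repressive complex 2 (PRC2), which methylates H3K27 and keeps developmental genes silent, had lower transcript signals for Ezh2 and Suz12 and a higher one for Ezh1. Ezh2, the catalytic subunit of dividing cells, read 8.92, 8.80 and 8.92 in EV cells against 8.28, 8.15 and 8.31 in PIM1 cells. All 3 PIM1 values lie below all 3 EV values, and the fall was 1.55-fold (difference -0.63, standard error 0.0988, limma adjusted p = 0.00219). Suz12, the subunit on which the complex is assembled, read 8.53, 8.68 and 8.60 against 7.83, 7.96 and 8.01, a 1.59-fold fall (difference -0.67, adjusted p = 0.00176). Ezh1, the alternative catalytic subunit that prevails in resting and differentiated cells, went the other way. It read 6.81, 6.57 and 6.71 in EV and 7.33, 7.48 and 7.49 in PIM1, a 1.66-fold rise (difference 0.73, adjusted p = 0.00151). Eed, the subunit that binds the finished mark, read 7.87, 7.68 and 7.65 against 7.35, 7.61 and 7.54. Its groups did not overlap either, but the difference of -0.23 did not pass (95% interval -0.50 to 0.03, adjusted p = 0.180). Thus 3 of 4 PRC2 genes passed, beside 27.0% of all genes, and the same 3 did so under each scaling.

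A difference between 2 probe sets of the same array does not move when the whole array is shifted. Ezh2 minus Ezh1 was 2.10, 2.23 and 2.21 in EV cells against 0.95, 0.67 and 0.82 in PIM1 cells, a change of -1.37. Suz12 minus Ezh1 changed by -1.41, from 1.91 ± 0.199 to 0.50 ± 0.0163. These and the 5 other pairs given below were chosen after the values were seen, from genes that had passed in opposite directions, so that the separation of the groups follows from the choice and is no test. Their levels compare different probe sets, so only the change between groups can be read.

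The promoters of these 4 genes are shown because 3 of them passed, in both directions. Sequences are RefSeq windows of assembly GRCm38.p6, from 250 bases before to 30 bases after the annotated start, written 5′ to 3′ on the gene's strand, with motif matches in capitals. Ezh2 is at chr6:47595001-47595280 on the minus strand, Suz12 at chr11:79992856-79993135 on the plus strand, Eed at chr7:89980947-89981226 on the minus strand and Ezh1 at chr11:101226434-101226713 on the minus strand.
Ezh2: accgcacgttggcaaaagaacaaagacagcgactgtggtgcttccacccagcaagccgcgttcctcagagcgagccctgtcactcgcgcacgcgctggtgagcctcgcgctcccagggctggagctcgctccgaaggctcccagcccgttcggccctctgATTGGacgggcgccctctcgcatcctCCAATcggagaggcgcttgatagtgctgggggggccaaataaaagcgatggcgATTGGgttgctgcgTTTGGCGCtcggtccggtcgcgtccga
Suz12: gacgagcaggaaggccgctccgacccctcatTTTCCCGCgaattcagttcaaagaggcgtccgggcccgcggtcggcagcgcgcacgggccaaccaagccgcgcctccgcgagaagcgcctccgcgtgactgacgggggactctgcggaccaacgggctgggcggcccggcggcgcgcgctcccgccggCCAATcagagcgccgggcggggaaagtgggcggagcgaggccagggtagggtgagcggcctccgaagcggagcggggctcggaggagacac
Eed: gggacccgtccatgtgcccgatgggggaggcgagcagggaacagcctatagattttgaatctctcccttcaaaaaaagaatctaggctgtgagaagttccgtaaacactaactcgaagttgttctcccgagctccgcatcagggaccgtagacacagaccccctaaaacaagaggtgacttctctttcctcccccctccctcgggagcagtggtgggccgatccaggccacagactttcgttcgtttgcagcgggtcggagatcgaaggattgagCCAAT
Ezh1: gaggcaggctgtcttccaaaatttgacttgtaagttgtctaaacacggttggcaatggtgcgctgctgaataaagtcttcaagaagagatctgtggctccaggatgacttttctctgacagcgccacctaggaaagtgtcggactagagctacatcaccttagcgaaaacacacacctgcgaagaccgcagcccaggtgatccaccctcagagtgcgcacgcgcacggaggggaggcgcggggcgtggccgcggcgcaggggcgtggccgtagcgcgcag

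The capitals mark the E2F motif (TTTCCCGC, TTTCGCGC, TTTGCCGC or TTTGGCGC), the CCAAT box and the E-box CACGTG, each searched on both strands. The E2F motif occurs as TTTGGCGC in the Ezh2 window, with its first base at position 4 after the start, and as TTTCCCGC in the Suz12 window, with its first base at -219. The Eed and Ezh1 windows hold no E2F match. Ezh2 has 3 CCAAT boxes, Suz12 and Eed 1 each, and Ezh1 none. An E2F match was present in 2.12% of all 32851 windows and a CCAAT box in 36.1%. Counted by gene, 2.45% of the 27025 genes with a window held an E2F match and 39.7% a CCAAT box. Of the 70 enzyme genes with a window, 7 held an E2F match. These were Ezh2 and Suz12, which fell, and Dnmt1, Kat2a, Kmt5c, Prdm4 and Sirt4, which did not pass. A match is a stretch of letters and not a measured binding site.

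**Figure D3:**
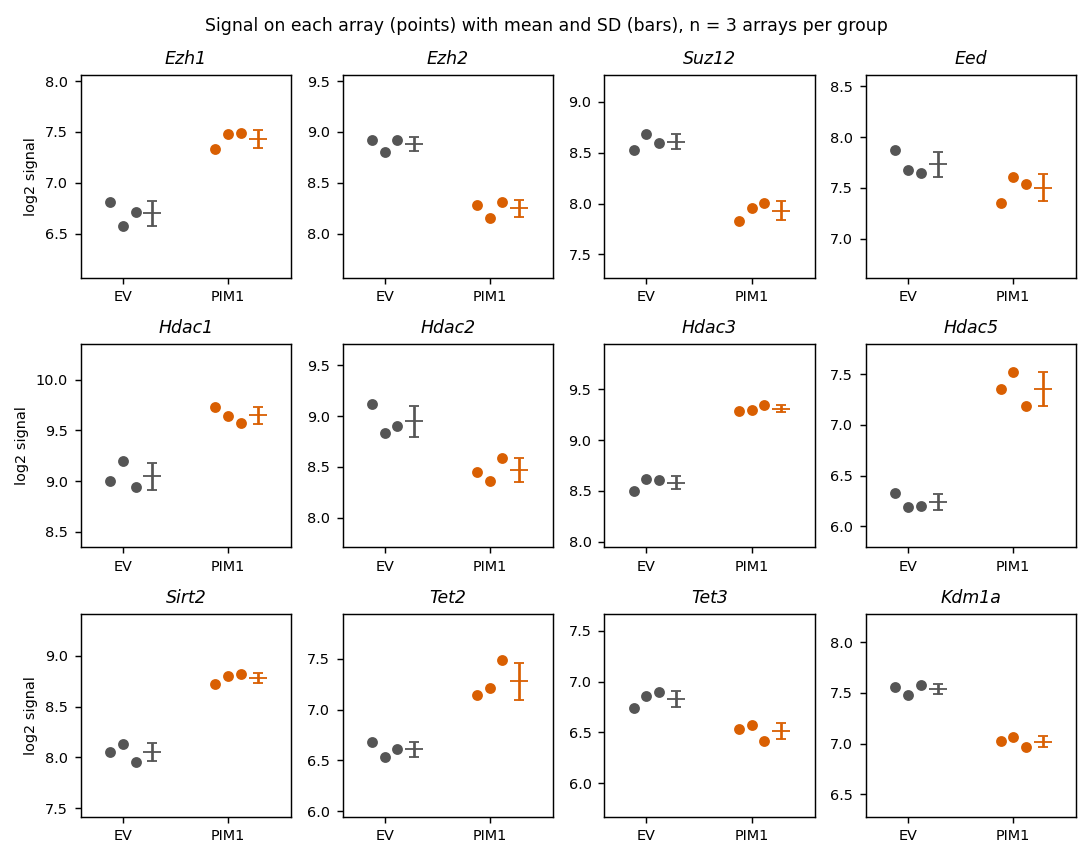
Log2 signal (y axis) of 12 enzyme genes on each array, with points for arrays and bars for mean and SD, in EV (grey) and PIM1 (orange) cells, each panel spanning 2 log2 units. The groups are separated in every panel, upwards for Ezh1, Hdac1, Hdac3, Hdac5, Sirt2 and Tet2 and downwards for the others; Eed is shown as the PRC2 gene that did not pass.

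Among the classical histone deacetylases 4 of 9 genes rose and 2 fell. The largest difference of the whole group was that of Hdac5, a class IIa deacetylase that shuttles between cytoplasm and nucleus and represses MEF2 factors. It read 6.33, 6.19 and 6.20 in EV cells against 7.35, 7.52 and 7.19 in PIM1 cells, a 2.16-fold rise (difference 1.11, standard error 0.116, limma adjusted p = 2.54e-04). Under the alternatives its difference ranged from 0.98 to 1.21, so that it lay just under 2-fold after quantile normalization. The other class IIa genes did not pass. Hdac4 read 6.66 ± 0.145 in EV and 6.84 ± 0.172 in PIM1, and Hdac7 7.32 ± 0.0487 and 7.07 ± 0.0346. Hdac9 read 3.32, 3.03 and 2.55 against 3.37, 3.61 and 4.02 (difference 0.70, adjusted p = 0.0511). This low signal spread widely, with the highest EV array close to the lowest PIM1 array. Hdac9 passed without EV replicate 1 (difference 0.87, adjusted p = 0.0292) and without PIM1 replicate 1 (0.85, adjusted p = 0.0482), and after each rescaling of the arrays (adjusted p = 0.0291 to 0.0357), but not without any other array (highest adjusted p = 0.162).

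The 3 class I deacetylases measured here, nuclear enzymes that work in corepressor complexes, passed in different directions; the X-linked Hdac8 was among the genes left out. Hdac3, the catalytic subunit of the NCoR and SMRT corepressors, read 8.50, 8.62 and 8.61 in EV and 9.29, 9.30 and 9.35 in PIM1. The PIM1 arrays were nearly identical and the rise was 1.67-fold (difference 0.74, adjusted p = 6.93e-04). Hdac1, which works in the Sin3, NuRD and CoREST complexes, read 9.00, 9.20 and 8.94 against 9.73, 9.64 and 9.57, a 1.52-fold rise (adjusted p = 0.00451). Hdac2, its close paralogue in the same complexes, read 9.12, 8.83 and 8.90 against 8.45, 8.36 and 8.59, a 1.40-fold fall (difference -0.48, adjusted p = 0.0181). The fall of Hdac2 did not pass without PIM1 replicate 1 or 2 (adjusted p = 0.0640 to 0.0756). Within arrays, Hdac2 minus Hdac1 changed by -1.08, from -0.10 ± 0.25 in EV to -1.18 ± 0.177 in PIM1.

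Hdac10, a class IIb enzyme known as a polyamine deacetylase, read 5.07, 5.13 and 4.77 in EV and 5.51, 5.61 and 5.62 in PIM1, a 1.5-fold rise (adjusted p = 0.00819). Hdac11, the only class IV deacetylase, fell 1.36-fold from 4.63 ± 0.117 to 4.18 ± 0.133 (adjusted p = 0.0221). The call for Hdac11 was lost after median centring (adjusted p = 0.0514), as the average of its probe sets (0.0767) and without EV replicate 1 or PIM1 replicate 2 or 3 (0.0606 to 0.0821). A dimmer second probe set of Hdac11 differed by -0.44 as well, with adjusted p = 0.259 over all probe sets.

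Of 7 sirtuins, deacylases that use NAD as a cosubstrate, 2 rose and 1 fell. Sirt2, a mostly cytoplasmic tubulin deacetylase, read 8.05, 8.13 and 7.95 in EV cells against 8.72, 8.80 and 8.82 in PIM1 cells. The separation was wide and the rise 1.66-fold (difference 0.73, limma adjusted p = 9.21e-04). Sirt3, the main mitochondrial deacetylase, rose 1.36-fold from 4.28 ± 0.162 to 4.73 ± 0.068 (adjusted p = 0.0212). Sirt5, a mitochondrial desuccinylase and demalonylase, fell 1.40-fold from 5.17 ± 0.161 to 4.69 ± 0.187 (adjusted p = 0.0303). As a description of these opposite calls, Sirt5 minus Sirt3 within arrays went from 0.89 ± 0.068 to -0.04 ± 0.188. Both of these calls were less firm than that of Sirt2. Sirt3 did not pass without EV replicate 3 or PIM1 replicate 2 or 3 (adjusted p = 0.0584 to 0.0751), and Sirt5 did not pass after median centring (0.0763) or without EV replicate 2 or PIM1 replicate 1 or 2 (0.0820 to 0.110). For Sirt1, Sirt4, Sirt6 and Sirt7 differences were between -0.06 and 0.18.

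The promoters of Hdac5 and Sirt2 are shown because these genes had the largest rise of the class IIa deacetylases and of the sirtuins, in the same form and with the same motifs in capitals. Hdac5 is at chr11:102230143-102230422 on the minus strand and Sirt2 at chr7:28766502-28766781 on the plus strand.
Hdac5: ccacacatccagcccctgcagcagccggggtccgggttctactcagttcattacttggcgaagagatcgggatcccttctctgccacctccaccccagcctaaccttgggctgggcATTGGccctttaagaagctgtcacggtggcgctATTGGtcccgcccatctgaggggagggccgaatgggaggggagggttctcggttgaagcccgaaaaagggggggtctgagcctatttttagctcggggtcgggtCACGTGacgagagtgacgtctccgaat
Sirt2: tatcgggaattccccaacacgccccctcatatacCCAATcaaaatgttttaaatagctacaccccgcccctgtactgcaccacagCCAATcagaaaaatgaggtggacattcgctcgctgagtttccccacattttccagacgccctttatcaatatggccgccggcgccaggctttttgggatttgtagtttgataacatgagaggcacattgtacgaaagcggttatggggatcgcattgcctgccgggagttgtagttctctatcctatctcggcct

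The Hdac5 window holds 2 CCAAT boxes and an E-box whose first base is at position 4, and the Sirt2 window 2 CCAAT boxes. An E-box of these letters was present in 6.79% of all windows and in 7.71% of all genes with a window. Of the 10 higher genes with a window 0 held an E2F match, and of the 49 that did not pass 5 did. Of the 11 lower genes 2 did, Ezh2 and Suz12. The share over all genes with a window was 2.45%. Counts this small cannot tell the directions apart, and no difference between them was tested.

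Of the acetyltransferases, 1 of 8 passed. Kat5, the TIP60 enzyme that acetylates histone H4 and takes part in the response to DNA breaks, read 6.35, 6.51 and 6.20 in EV and 6.89, 6.96 and 6.81 in PIM1. No arrays overlapped, and the rise was 1.45-fold (difference 0.53, limma adjusted p = 0.00943). Kat6a, the MOZ acetyltransferase, read 7.81 ± 0.0499 against 7.52 ± 0.0938 and did not pass (difference -0.29, adjusted p = 0.0624). It passed after quantile normalization (-0.39, adjusted p = 0.0172) and cyclic loess (-0.37, adjusted p = 0.0210). Ep300, the p300 coactivator, differed by -0.05 (95% interval -0.28 to 0.18), and Kat7, the HBO1 enzyme of replication origins, by -0.13. The other genes, Kat2a, Kat2b, Kat6b and Kat8, lay between -0.19 and 0.18. Thus 9 of 16 deacetylases and sirtuins passed and 1 of 8 acetyltransferases did, beside 27.0% of all genes. With so few genes, 1 of 8 cannot be told apart from that share, and the difference between the shares was not tested. Hdac10, Sirt2, Sirt3 and Sirt5, which passed, are described above as acting on other substrates or mainly outside the nucleus. The 16 are therefore not a set that opposes the 8 acetyltransferases on histones.

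Most lysine methyltransferases did not pass. Of 16 Kmt and Setd genes, 1 rose and 2 fell. Setd2, which places the trimethyl mark of H3K36 on transcribed genes, read 7.99, 7.87 and 7.77 in EV and 7.47, 7.50 and 7.51 in PIM1, a 1.30-fold fall (limma adjusted p = 0.0235). Setd6, which monomethylates the NF-kappaB subunit RelA, fell 1.31-fold from 6.80 ± 0.0813 to 6.42 ± 0.116 (adjusted p = 0.0283). Setd1b, a subunit of a COMPASS complex that methylates H3K4, read 6.17, 5.62 and 5.78 against 6.35, 6.25 and 6.41, and rose 1.40-fold (adjusted p = 0.0455). These 3 calls were lost under some scalings and when certain arrays were left out. With 1 array left out, all genes called also fell, from 5995 to between 4167 and 5369. The differences then lay between -0.33 and -0.44 for Setd2, -0.32 and -0.43 for Setd6, and 0.36 and 0.64 for Setd1b. Setd2 did not pass after median centring (adjusted p = 0.0726) or without any 1 array other than EV replicate 3 (0.0507 to 0.0846). Setd6 was lost after median centring (0.0869) and without EV replicate 1 or 3 or PIM1 replicate 1 or 2 (0.0519 to 0.110), and Setd1b was lost after quantile normalization (0.165), cyclic loess (0.103) and without any 1 array other than EV replicate 1 (0.0864 to 0.129).

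The Kmt2 family holds the large MLL proteins, of which Kmt2a to Kmt2d methylate H3K4 at promoters and enhancers, and none of its genes passed. The 5 differences were 0.03 for Kmt2a, 0.09 for Kmt2b, 0.07 for Kmt2c, 0.15 for Kmt2d and -0.01 for Kmt2e. The widest of their 95% intervals reached 0.41, that of Kmt2d. Kmt5a, which monomethylates H4K20 in mitosis, read 10.19, 10.25 and 10.16 against 10.35, 10.34 and 10.50, a separated but small difference of 0.20 (adjusted p = 0.169). Kmt5b and Kmt5c, which extend that mark, differed by -0.18 and -0.01.

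Of 14 lysine demethylases, 2 rose and 2 fell. Kdm1a, the LSD1 enzyme that removes H3K4 methylation within the CoREST complex, read 7.56, 7.48 and 7.58 in EV cells against 7.03, 7.07 and 6.97 in PIM1 cells. The spread within groups was small, and the fall was 1.43-fold (difference -0.52, limma adjusted p = 0.00448). Kdm5b, a JARID1 enzyme that removes the same mark in its trimethyl form, went the other way. It read 7.27, 7.52 and 7.36 against 7.83, 7.78 and 7.98, a 1.39-fold rise (adjusted p = 0.0145). Kdm4a, which removes methyl groups from H3K9 and H3K36, rose 1.32-fold from 7.53 ± 0.111 to 7.93 ± 0.115 (adjusted p = 0.0280). Kdm6b, the JMJD3 demethylase of H3K27 and a known inflammatory response gene in macrophages, fell 1.28-fold from 7.01 ± 0.0336 to 6.65 ± 0.161 (adjusted p = 0.0440).

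The calls for Kdm1a and Kdm5b held in every alternative, with adjusted p of at most 0.0225 and 0.0483. The Kdm4a call was lost with quantile-normalized arrays (0.0900), with cyclic loess (0.0706) and without EV replicate 1 or 3 or PIM1 replicate 1 or 2 (0.0677 to 0.110). Kdm6b did not pass after median centring (0.141), as the average of its probe sets (0.146) or without any 1 array other than PIM1 replicate 3 (0.0765 to 0.156). The dimmer second probe set of Kdm6b differed by -0.085. Kdm3a, a hypoxia-induced demethylase of H3K9, differed by -0.06 (95% interval -0.29 to 0.17), and Kdm2a, which acts on H3K36 at CpG islands, by -0.14. Kdm3b and Kdm4b, at 0.30 and 0.24, had separated groups and did not pass.

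The Prdm genes encode zinc finger transcription factors with a PR domain, most of which act in development. Of 13 measured, many at a low signal, 1 rose and 1 fell. Prdm16, a regulator of brown fat and of stem cells, read 4.48, 4.40 and 4.41 in EV and 5.04, 5.10 and 4.97 in PIM1, a 1.52-fold rise (limma adjusted p = 0.00206). Its dimmer second probe set differed by -0.14, and the average of both did not pass (difference 0.23, adjusted p = 0.128), so the rise rests on 1 probe set. Prdm8 read 4.41, 3.87 and 4.13 against 3.72, 3.64 and 3.36 (difference -0.56, adjusted p = 0.0333). This fall at a low signal was lost after median centring (0.0585) and without any 1 array other than EV replicate 2 (0.0539 to 0.111). Prdm1, the BLIMP1 repressor, differed by -0.14, with EV arrays between 3.26 and 4.05, and Prdm4 by 0.21.

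Among 7 arginine methyltransferases 1 rose and 1 fell. Prmt6, which places an asymmetric dimethyl mark on histone H3 that opposes H3K4 methylation, read 5.58, 5.88 and 5.56 in EV and 6.32, 6.29 and 6.42 in PIM1. No arrays overlapped, and the rise was 1.58-fold (limma adjusted p = 0.00410). Prmt9, which methylates a splicing factor, fell 1.27-fold from 5.74 ± 0.0907 to 5.40 ± 0.127 (adjusted p = 0.0489). That call lay at the threshold and was lost with a trended variance (0.0528), after median centring (0.155) and without any 1 array other than PIM1 replicate 3 (0.0643 to 0.161). Prmt5, the main enzyme of symmetric dimethylation, read 9.69, 9.73 and 9.71 against 9.46, 9.37 and 9.61, a separated difference of -0.23 that did not pass (adjusted p = 0.142). Prmt1, the main enzyme of asymmetric dimethylation, read 8.54 ± 0.111 against 8.55 ± 0.0397.

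The DNA methyltransferases did not pass, while 2 of the 3 TET genes, whose enzymes oxidise methylcytosine, moved in opposite directions. Tet2 read 6.68, 6.53 and 6.61 in EV cells against 7.14, 7.21 and 7.49 in PIM1 cells, a 1.59-fold rise (limma adjusted p = 0.00417). Tet3 read 6.74, 6.86 and 6.90 against 6.53, 6.57 and 6.42, a 1.25-fold fall (adjusted p = 0.0452). The rise of Tet2 held in every alternative. Tet3 did not pass after median centring (0.156) or without any 1 array other than EV replicate 1 (0.0891 to 0.113). Tet3 minus Tet2 within arrays went from 0.22 ± 0.145 to -0.77 ± 0.255. Dnmt1, the maintenance methyltransferase, read 9.60, 9.53 and 9.60 against 9.51, 9.45 and 9.47. The groups were separated by a difference of -0.10 (95% interval -0.31 to 0.11), and after median centring that difference was 0.001. The de novo enzyme genes Dnmt3a and Dnmt3b differed by 0.10 and -0.07, the cofactor gene Dnmt3l by 0.21 and Tet1 by 0.09.

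The members can also be arranged by the mark they write or erase. For H3K27, 1 of the 4 PRC2 writer genes rose and 2 fell, and of the 2 eraser genes Kdm6b fell and Kdm7a, at 0.02, did not pass. For H3K4, 1 of 7 writer genes rose, Setd1b, and of 4 eraser genes Kdm5b rose and Kdm1a fell. Kdm1a minus Kdm5b within arrays changed by -1.0, from 0.15 ± 0.174 to -0.84 ± 0.157. For H3K36 the writer gene Setd2 fell and 1 of 5 eraser genes rose, Kdm4a, and Setd2 minus Kdm4a changed by -0.79. The calls for Setd2 and Kdm4a each held in only 6 of the 14 alternatives. Nsd2 and Nsd3, partner genes that also methylate H3K36, fell by 0.95 and 0.44, and their relative Nsd1 did not pass.

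**Figure D4:**
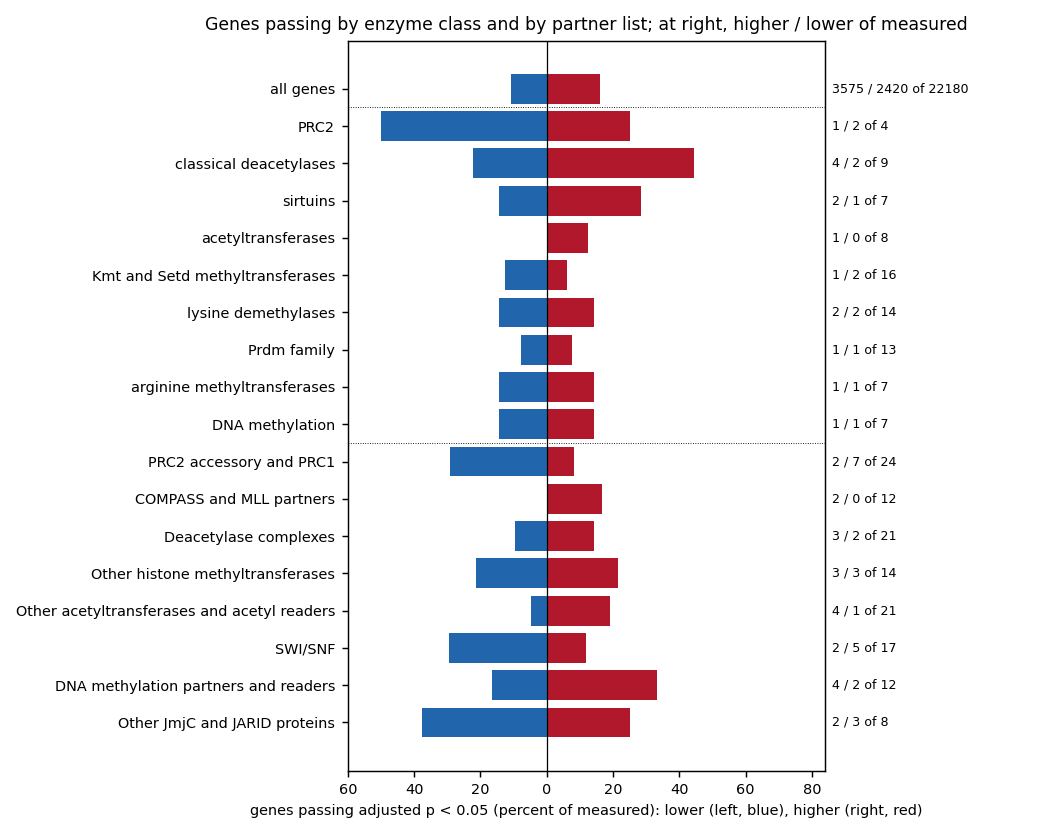
Share of measured genes that passed (x axis, percent; lower in PIM1 to the left, higher to the right) for all genes, for the 9 enzyme classes and for 8 lists of partner genes, with the counts at the right. Classical deacetylases have the most higher genes among the enzyme classes (4 of 9), and the other JmjC and JARID proteins have the highest share of lower genes among the partner lists (3 of 8).

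The partners of these enzymes were followed in 8 lists of 129 measured genes, of which 22 rose and 23 fell (34.9%, beside 27.0% of all genes). Polycomb partners fell more often than they rose as deposited. Of 24 PRC2 accessory and PRC1 genes, 2 rose and 7 fell, with a median difference of 0.02, and after median centring 5 rose and 5 fell. Pcgf5, a subunit of a variant PRC1, fell 2.10-fold from 7.71 ± 0.125 to 6.65 ± 0.205 (limma adjusted p = 6.22e-04). Phc1 and Phc2, polyhomeotic subunits of canonical PRC1, fell by 0.70 and 0.63, and Pcgf6 by 0.59. The 2 that rose were Phf19, by 0.50 (adjusted p = 0.0341), and the polyhomeotic gene Phc3, by 0.35 (adjusted p = 0.0484). Both of these rises were lost after quantile normalization and without several single arrays (highest adjusted p = 0.117 and 0.174). For the deacetylase complexes 3 of 21 genes rose and 2 fell. Chd3, a remodelling ATPase of the NuRD complex, had the largest partner difference and fell 3.04-fold, from 7.87, 7.78 and 7.96 to 6.17, 6.30 and 6.32 (adjusted p = 1.60e-05). Tbl1xr1, which belongs to the NCoR and SMRT complexes together with HDAC3, rose 2.30-fold from 7.35 ± 0.0436 to 8.56 ± 0.0718 (adjusted p = 5.40e-05). Ing1, of the Sin3 complex, rose by 0.57 and Gatad2a, of NuRD, fell by 0.55.

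Of 14 other histone methyltransferase genes 3 rose and 3 fell. Nsd2, which dimethylates H3K36, fell 1.93-fold from 8.38 ± 0.12 to 7.43 ± 0.0975 (limma adjusted p = 4.17e-04), and Setdb2 fell by 0.68. Nsd3, a relative of Nsd2, fell by 0.44, a call that was lost without PIM1 replicate 1 or 2 (highest adjusted p = 0.0665). Smyd5 rose by 0.63 and was lost after quantile normalization and without the same arrays (highest adjusted p = 0.0763). COMPASS partners gave 2 higher and 0 lower of 12. Cxxc1, which brings the complex to CpG islands, rose by 0.66 and Wdr82, which works with SETD1A and SETD1B, by 0.44. The Wdr82 call was lost without PIM1 replicate 1 or 2 (highest adjusted p = 0.0591). After quantile normalization 2 COMPASS partners rose and 3 fell. Of 21 acetyltransferase partners and acetyl readers 4 rose, Tada2b (0.67), Naa60 (0.53), Ing5 (0.73) and Ncoa1 (0.79), and 1 fell, Hat1 (-0.33). The Hat1 call was lost after median centring and without any 1 array other than EV replicate 1 (highest adjusted p = 0.119).

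SWI/SNF remodelling genes gave 2 higher and 5 lower of 17, or 2 and 2 after median centring. Arid1b and Pbrm1, subunits of different SWI/SNF assemblies, fell by 0.88 and 0.74, and the core gene Smarcc2 rose by 0.60. Its paralogue Smarcc1 fell by 0.34 (limma adjusted p = 0.0428). The Smarcc1 call was lost after median centring and without any 1 array other than PIM1 replicate 3 (highest adjusted p = 0.155). Smarcb1 rose by 0.39, a call that was lost after quantile normalization, cyclic loess and without EV replicate 2 or PIM1 replicate 1 or 2 (highest adjusted p = 0.0879). Of 12 partners and readers of DNA methylation 4 rose and 2 fell. Zbtb38, a reader of methylated DNA, rose 2.11-fold from 6.09 ± 0.284 to 7.17 ± 0.221 (limma adjusted p = 0.00232), and Uhrf2 rose by 0.58. Gadd45g, a stress gene linked to demethylation, fell by 0.88, and Cxxc4 by 0.80 at a low signal. The related gene Gadd45b rose by 0.40 (adjusted p = 0.0207). That rise was lost after quantile normalization, cyclic loess and without EV replicate 1 or PIM1 replicate 1 or 2 (highest adjusted p = 0.0792). Of 8 other JmjC proteins 2 rose and 3 fell, with Jmjd1c at -0.74, Phf2 at -0.67, Riox1 at -0.43 and Jmjd8 at 0.58. Riox1 did not pass after median centring or without EV replicate 3 or PIM1 replicate 1 or 3 (highest adjusted p = 0.0687).

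Several of these enzymes vary with proliferation, so proliferation genes are given beside them. Of 19 measured, 4 rose and 4 fell, with a median difference of -0.09 as deposited. That median was 0.01 after median centring, -0.21 after quantile normalization and -0.18 after cyclic loess. E2f1, Ccne1, Rrm2 and Mcm3 rose by 0.69, 0.74, 0.70 and 0.58, although Rrm2 did not pass as the average of its probe sets (adjusted p = 0.141). Top2a, Mki67, Bub1 and Mcm4 fell by 0.69, 0.52, 0.59 and 0.31. The other 11 genes, Ccna2, Cdk1, Aurkb, Plk1, Mcm2, Mcm5, Mcm6, Pcna, Tyms, Cdc6 and Gins1, did not pass. The Mcm4 call was lost after median centring and without any 1 array other than EV replicate 2 (highest adjusted p = 0.169). The summed signal of the 19 genes as deposited was 13.22 to 13.27 on the EV arrays and 13.03 to 13.10 on the PIM1 arrays. These sums also carry the gap in median array signal, 3.501 in EV and 3.403 in PIM1. The part of proliferation in the differences of Ezh2, Suz12 and the other enzymes was not tested.

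Checks of the labels used the same fit. Pim1 read 5.26, 6.25 and 5.23 in EV and 7.11, 6.89 and 6.97 in PIM1 (difference 1.41, limma adjusted p = 0.00455). Rb1 read 4.47 ± 0.404 and 4.85 ± 0.384 and compares groups that share the knockout, so it checks nothing about it, and Trp53 was not analysed here. Defining epithelial markers were low: Epcam read 2.50 ± 0.026 in EV and 2.35 ± 0.0614 in PIM1, and Cdh1 5.21 ± 0.267 and 4.27 ± 0.0474. The summed epithelial signal of 10 markers, carried by Krt18, was 9.40 to 9.48 on EV arrays and 7.01 to 7.08 on PIM1 arrays, and 3 of the 10 fell. Of 10 fibroblast markers 8 rose and 1 fell (Fap, by 0.47), with a summed signal of 10.97 to 11.00 in EV and 12.90 to 12.98 in PIM1. Dcn rose 44.5-fold from 4.85 ± 0.0936 to 10.33 ± 0.157 (limma adjusted p = 9.69e-08), Pdgfra 25.9-fold, Dpt 5.99-fold, Fbln1 3.82-fold and Col3a1 2.26-fold. Leukocyte markers gave 0 higher and 1 lower of 7, with a summed signal of 6.57 to 6.66 and 5.84 to 6.01 (Ptprc at 2.07 ± 0.151 and 1.87 ± 0.134). Endothelial markers gave 0 of 6 passing, basal markers 2 of 4 lower, smooth muscle markers 1 higher and 1 lower of 5, luminal markers 1 and 1 of 4, and neuroendocrine markers 0 and 1 of 4. The part of these marker shifts in the enzyme differences was not tested. Arrays of the same group correlated at 0.9904 to 0.9965 over all genes and arrays of different groups at 0.9633 to 0.9668.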

How the data were processed

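RNA from 6 samples was measured on 1 Affymetrix whole-transcript mouse array each. The deposited values are taken as log2 signals, from 0.34 to 13.05, from their range, because no source used here states the authors' log base. The submitters' processing notes name Affymetrix Expression Console with no version number; how background, probe summaries and scaling were handled is not stated there. The deposited scale was kept. The number of arrays limits the precision.

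Groups came from the sample titles. Of 41345 probe sets 23521 had 1 gene symbol in the platform annotation (1814 several, 16010 none, both left out), and 23328 of these matched RefSeq (GRCm38.p6) by identifier. The brightest probe set per gene gave 22180 genes. A limma model of group (version 3.58.1, R 4.3.3, two-sided) tested each gene, adjusted by Benjamini-Hochberg over all genes at 0.05, and the code was tested on simulated data. Lists are described by counts and medians, with no test.

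Named members are all that passed, plus per class the brightest, the 2 with the smallest p and any differing by at least 0.5. For partner lists they are the up to 4 with the smallest p. All other genes named, such as Eed, Prdm1 and Kdm3a, were picked with their values in view. The members and lists were chosen with earlier results of these data known. Promoter windows were matched by symbol for 70 of 85 members.

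Alternatives were other variance, scaling, brightness and probe set choices, a replicate block and leaving out each array.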

Additional observations from a re-analysis of the deposited data

How the results depend on the processing

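All 26 called enzymes kept their direction in the 14 alternatives (Prdm8 in 13, since it is not among the brighter genes), and 13 passed in each. Most alternatives could not change a direction. Other variance, the brighter genes, adjustment over all probe sets and the replicate block leave the difference as it was. Leaving out 1 array cannot turn groups that do not overlap, which holds for all 26. Only quantile normalization and cyclic loess left the direction open for every called gene. The number of higher enzymes was 11 to 17 throughout. The number of lower enzymes, 12 as deposited, was 4 after median centring, 4 with adjustment over all probe sets, 7 with the replicate block, and 3 to 8 when 1 array was left out, lowest without PIM1 replicate 2 (3 lower) and PIM1 replicate 1 (4 lower), and 7 without each EV array in turn. The higher enzymes numbered 13 with the replicate block, and all genes called fell from 5995 to 5321. With the block 20 of the 26 calls were kept, and Setd2, Kdm4a, Kdm6b, Sirt5, Tet3 and Prmt9 did not pass (limma adjusted p = 0.0548 to 0.0941). Deviations of same-numbered arrays from their group means correlated at r = 0.056, -0.031 and 0.009. With 3 arrays per group these values cannot show whether the numbers pair the arrays, and no label says so. Dnmt1, not called, differed by -0.10 as deposited and by 0.001 after median centring. All genes called were 4167 to 5369 with 1 array left out; of all 41345 probe sets, including those with no or several symbols, 6748 were called. The cause of these shifts was not tested. Background was not separated from signal, which limits the sizes given at low signals.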
